A study of Mus musculus with 27 samples.

Results

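Liver expression was examined for 7 genes that sense or use sugar, *Mlxipl*, *Pklr*, *Khk*, *Slc2a2*, *Gckr*, *Txnip* and *Gpd1*. They were taken by symbol from the 23191 gene symbols of the count table. All 7 were found, and all 7 passed the filter on low counts in each comparison. RNA-Seq had been performed on the livers of 27 male C57BL/6J mice, 8 weeks old when feeding began and fed for 4 weeks. There were 7 littermate controls on chow, 7 littermate controls on HF/HS (a diet high in fat and sucrose), 6 HGFAC-KO mice on chow and 7 HGFAC-KO mice on HF/HS. HGFAC (hepatocyte growth factor activator) is a protease that the liver secretes. The knockout is a whole-body one made by genome editing, and it takes out the second exon of *Hgfac* whole and part of the first in every tissue. Each library is a separate mouse by its label.

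*Mlxipl* encodes ChREBP, a transcription factor that responds to sugar metabolites in the liver cell and binds DNA together with its partner MLX. Its classic targets include *Pklr* (liver pyruvate kinase, the last step of glycolysis), *Khk* (ketohexokinase, the first step of fructose breakdown), *Gckr* (the regulatory protein that holds glucokinase in the nucleus), *Slc2a2* (GLUT2, the main sugar transporter of the hepatocyte), *Gpd1* (the cytosolic enzyme that makes glycerol 3-phosphate for triglyceride) and *Txnip* (thioredoxin-interacting protein, an arrestin-like protein that limits glucose uptake). Sucrose is split into glucose and fructose, both of which reach the liver through the portal vein.

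The element through which ChREBP acts on *Pklr* is shown first, since the study used this stretch to measure ChREBP binding. The carbohydrate response element consensus, a pair of partial E-boxes 5 bases apart, was searched on both strands. It was found once in the *Pklr* promoter, 170 bases before the start site of the liver transcript. The 114 bases between the study's chromatin immunoprecipitation primers, chr3:89136402-89136515 on the plus strand of GRCm38.p6 (RefSeq), are given with the consensus in capitals:
Pklr amplicon: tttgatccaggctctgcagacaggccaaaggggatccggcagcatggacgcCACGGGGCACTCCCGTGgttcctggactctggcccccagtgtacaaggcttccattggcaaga

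Promoter windows of RefSeq, from 250 bases before to 50 after a start site, were found for 6 of the 7 genes. *Gpd1* had no window and was not searched. The consensus occurred in 39 of all 32851 windows (0.119%), and of the 6 genes searched *Pklr* alone had a match. A full E-box, CACGTG, occurred in 2349 of all windows (7.15%), and in those of *Mlxipl* and *Khk*. In *Mlxipl* it lay 98 bases before the upstream of its start sites, which are 17001 bases apart. The upstream site is the one from which the shorter beta isoform of ChREBP starts. In *Khk* it lay 71 bases before the start. A looser form, with the partial E-boxes in any orientation, was searched only after the sequences had been seen. It occurred in 103 windows (0.314%), among them that of *Txnip*, 85 bases before the start. The 3 stretches are shown for comparison with the *Pklr* element, with the match in capitals, all on the plus strand of GRCm38.p6 at chr5:135089767-135089822, chr5:30921463-30921518 and chr3:96557847-96557913:
Mlxipl: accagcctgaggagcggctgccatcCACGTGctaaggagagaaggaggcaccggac
Khk: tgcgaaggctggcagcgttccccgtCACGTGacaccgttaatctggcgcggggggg
Txnip: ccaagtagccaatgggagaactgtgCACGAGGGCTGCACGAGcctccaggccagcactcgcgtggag
These matches describe the letters in each window and were not measured as binding here.

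Levels are given in CPM, the deposited counts scaled to a common library size after TMM normalization. Total counts per library lay between 36056177 and 57298657. The lowest count of any of the 7 genes in any mouse was 1307 (*Txnip*), so counting error was small beside the spread between mice. The knockout was checked first. *Hgfac* (chr5:35041509-35048461) was at 201 ± 12.8 CPM (SD, n = 7) in control mice and 75.2 ± 8.27 CPM (n = 6) in HGFAC-KO mice on chow, and at 271 ± 15.5 CPM (n = 7) and 91.8 ± 7.94 CPM (n = 7) on HF/HS. Every HGFAC-KO mouse was below every control on its diet. The remaining *Hgfac* counts were not split by exon. As a check of the tissue, 7 hepatocyte markers together ranged from 76313 to 115670 CPM. HGFAC-KO replicate 1 on chow and control replicate 7 on HF/HS correlated least with the mice of their groups (median r over genes of 0.981 and 0.980, and at least 0.988 in the other 25 mice). Some results for the 7 genes are also given without either or both of these mice.

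To set genes side by side, levels were divided by the length of all annotated exons of a gene, merged. This length depends on which transcripts are annotated, and the SDs between mice do not measure that dependence. *Gpd1* had the highest level of the 7 in control mice on chow, 245 ± 16.8 CPM per kb (SD, n = 7). It was followed by *Khk* at 115 ± 10.8, *Mlxipl* at 53.3 ± 3.93, *Pklr* at 36.2 ± 4.24, *Gckr* at 31.6 ± 2.32, *Slc2a2* at 22.3 ± 2.49 and *Txnip* at 14.7 ± 1.38 CPM per kb. *Pklr* and *Gckr* differed by less than the sum of their SDs, and each other pair of neighbours by more. In control mice on HF/HS, *Slc2a2* at 37.1 ± 6.08 CPM per kb stood above *Gckr* at 31.4 ± 3.74, within the sum of their SDs. There, too, *Mlxipl* at 62.4 ± 8.40 and *Pklr* at 60.1 ± 12.3 CPM per kb differed by less than their SDs.

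The diets were set against each other separately in control and HGFAC-KO liver, to ask how the genes of sugar sensing and use responded to the diet. HF/HS is high in fat as well as sucrose, so an effect of sugar alone cannot be told apart. In control liver, 4 of the 7 genes rose with HF/HS (*Slc2a2*, *Pklr*, *Khk* and *Gpd1*) and none fell, where 4.93% of the 13525 genes tested rose and 5.60% fell (edgeR's quasi-likelihood test, adjusted p under 0.05 over all genes). *Mlxipl* was the one other gene of the 7 with an unadjusted p under 0.05. The median log2 fold change was 0.28 over the 7 genes and 0.0036 over all genes tested. In HGFAC-KO liver, 1 of the 7 genes rose (*Txnip*) and none fell, where 3.17% of 13613 genes rose and 2.73% fell. *Pklr*, *Khk* and *Slc2a2* also had unadjusted p under 0.05 there, and the median over the 7 genes was 0.26. These 3 passed with DESeq2, by which 4 of the 7 genes rose against 5.34% of 13606 genes. *Pklr* and *Slc2a2* passed with edgeR when all mice were fitted together, by which 3 of the 7 rose against 4.22% of 13932 genes. Of 7 alternatives that kept all mice, *Pklr* and *Slc2a2* passed in 2 each and *Khk* in 1. On counts simulated for the control comparison, DESeq2 made 31 false calls and edgeR 7. Without control replicate 7 on HF/HS, the 4 genes called in control liver passed again and *Mlxipl* passed as well. Of 14 fits without 1 mouse, this was the only 1 in which *Mlxipl* passed. In bulk liver, fewer cells of a type and less RNA per cell cannot be told apart.

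**Figure D1:**
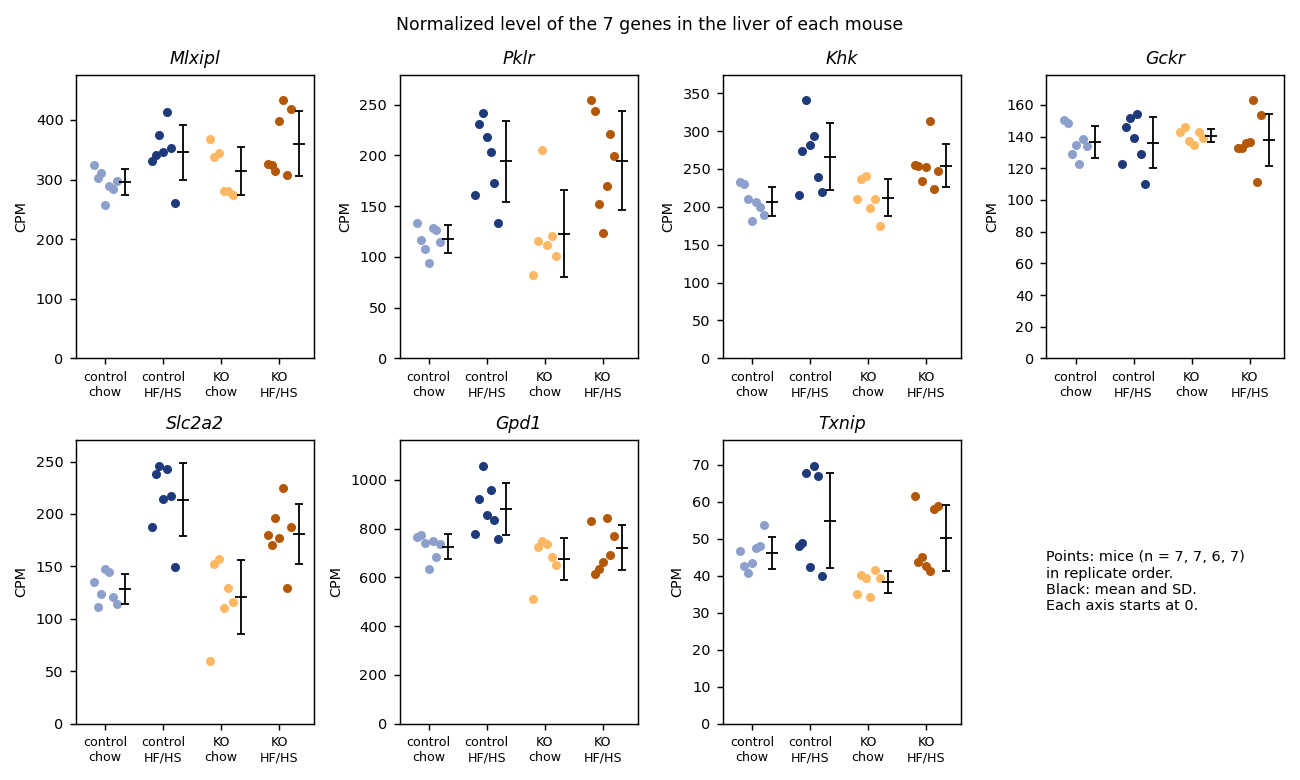
Normalized level (CPM, linear axes from 0) of each of the 7 genes in each mouse, by genotype and diet, with the mean and SD of each group in black. *Slc2a2* in control liver did not overlap between diets, its 7 chow mice lying at or below 147 CPM and its 7 HF/HS mice at or above 149 CPM, whereas *Gckr* lay between 110 and 163 CPM in all 27 mice.

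*Mlxipl* (ENSMUSG00000005373, chr5:135089890-135138382) in control liver ranged from 257 to 325 CPM on chow (median 298) and from 260 to 413 CPM on HF/HS (median 345). HGFAC-KO liver ranged from 274 to 368 CPM on chow (median 309.6) and from 308 to 433 CPM on HF/HS (median 327). On HF/HS, 6 of 7 controls and 3 of 7 HGFAC-KO mice were above all chow mice of their genotype. The log2 difference was 0.22 (SE 0.08, edgeR adjusted p = 0.0920) in control and 0.19 (SE 0.10, adjusted p = 0.286) in HGFAC-KO liver, so neither passed the threshold. Control replicate 7, at 260 CPM, was the one HF/HS control within the range of the chow controls. Without it the difference was 0.28 (adjusted p = 0.00821), the only pass in 14 fits without 1 mouse. The other such fits had adjusted p up to 0.178, and 0 of 7 other alternatives passed. Counts per gene do not separate the alpha from the beta isoform, which share most exons, so the level of each isoform was not measured.

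*Pklr* (ENSMUSG00000041237, chr3:89136142-89146784) was the glycolytic enzyme of the group. In control liver it ranged from 93.5 to 134 CPM on chow (median 117) and from 133 to 242 CPM on HF/HS (median 204), and 6 of 7 HF/HS mice were above every chow mouse. It was 1.66-fold higher on HF/HS (log2 0.73, SE 0.12, adjusted p = 0.00127). In HGFAC-KO mice it ranged from 82.3 to 205 CPM on chow (median 114) and from 123 to 254 CPM on HF/HS (median 199). Of these chow mice, 5 lay at or below 121 CPM and replicate 3 alone reached 205 CPM, so that 3 of 7 HF/HS mice were above them all. The log2 difference was 0.66 (SE 0.21, adjusted p = 0.0779), and it passed without replicate 3 on chow (0.87, adjusted p = 0.0111) or without replicate 4 on HF/HS, the lowest HF/HS mouse (0.75, adjusted p = 0.0439). Without replicate 1 on chow, which stood apart across genes, it was 0.57 (adjusted p = 0.135). Exons of *Pklr* share 711 bases with *Hcn3* on the opposite strand, which stood at 5.68 CPM on average.

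*Khk* (ENSMUSG00000029162, chr5:30921431-30931248) commits fructose to breakdown in the liver. In control liver it ranged from 181 to 232 CPM on chow (median 206) and from 216 to 340.5 CPM on HF/HS (median 274), and 5 of 7 HF/HS mice exceeded all chow mice. It rose 1.29-fold (log2 0.36, SE 0.10, adjusted p = 0.0251). In HGFAC-KO liver it ranged from 175 to 240.5 CPM on chow (median 210.3) and from 224 to 314 CPM on HF/HS (median 253), and again 5 of 7 HF/HS mice exceeded all chow mice. The log2 difference was 0.26 (SE 0.09, adjusted p = 0.0843), short of the threshold. In control liver the adjusted p was 0.0504 without replicate 7 on chow and 0.0524 without replicate 5 on HF/HS, so the call for *Khk* rests on either mouse.

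*Gckr* (ENSMUSG00000059434, chr5:31297443-31327314) restrains glucokinase when fructose 6-phosphate is high and releases it when fructose 1-phosphate is high. Control mice ranged from 122 to 151 CPM on chow (median 135) and from 110.4 to 154 CPM on HF/HS (median 139). HGFAC-KO mice ranged from 135 to 146 CPM on chow (median 141) and from 111 to 163 CPM on HF/HS (median 136). The groups overlapped throughout, and the log2 difference between diets was -0.01 in control (95% confidence interval -0.17 to 0.15) and -0.03 in HGFAC-KO liver (-0.18 to 0.13).

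*Slc2a2* (ENSMUSG00000027690, chr3:28697903-28731359) carries glucose and fructose across the hepatocyte membrane. In control liver it ranged from 112 to 147 CPM on chow (median 124) and from 149 to 246 CPM on HF/HS (median 218), with no overlap between the diets. The rise was 1.66-fold (log2 0.74, SE 0.10, adjusted p = 3.19e-04). In HGFAC-KO liver it ranged from 59.9 to 157 CPM on chow (median 123) and from 129.9 to 225 CPM on HF/HS (median 180.2). Replicate 1 on chow was lowest at 59.9 CPM, the next chow mouse being at 110.03 CPM, and 6 of 7 HF/HS mice were above all chow mice. The log2 difference was 0.58 (SE 0.18) with an adjusted p of 0.0748, which did not pass under edgeR, and 0.44 (SE 0.12, adjusted p = 0.0503) without replicate 1.

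*Gpd1* (ENSMUSG00000023019, chr15:99717515-99725005) links glycolysis to glycerolipid synthesis. Control mice ranged from 636 to 773 CPM on chow (median 742) and from 759 to 1058 CPM on HF/HS (median 855), and 6 of 7 HF/HS mice were above the chow mice. It rose 1.21-fold (log2 0.28, SE 0.07, adjusted p = 0.0264). In HGFAC-KO mice it ranged from 513 to 749 CPM on chow (median 704) and from 616 to 841 CPM on HF/HS (median 693), and the groups overlapped. The log2 difference there was 0.09 (SE 0.10, adjusted p = 0.616), and 0.02 without replicate 1 on chow (adjusted p = 0.912). The call in control liver was lost without any 1 of 3 mice, namely replicate 4 on chow (adjusted p = 0.0505), replicate 6 on chow (0.0537) and replicate 5 on HF/HS (0.0538).

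*Txnip* (ENSMUSG00000038393, chr3:96557957-96561883) had the lowest level of the 7 genes per kilobase. In control liver it ranged from 40.8 to 53.7 CPM on chow (median 46.6) and from 39.98 to 69.7 CPM on HF/HS (median 48.9). In HGFAC-KO liver it ranged from 34.3 to 41.6 CPM on chow (median 39.3) and from 41.2 to 61.6 CPM on HF/HS (median 45.1). On HF/HS, both genotypes held 3 mice that stood well above the rest of their group, at 66.8, 67.7 and 69.7 CPM in controls and at 58.0, 58.9 and 61.6 CPM in HGFAC-KO mice. The log2 difference between diets was 0.25 in control (SE 0.13, adjusted p = 0.230) and 0.39 in HGFAC-KO liver (SE 0.10, adjusted p = 0.0347), where 6 of 7 HF/HS mice were above all chow mice. This call was lost without any 1 of 7 mice, namely replicates 1, 2, 3 and 4 on chow and 1, 6 and 7 on HF/HS, with adjusted p between 0.0619 and 0.0751. Exons of *Txnip* share 606 bases with the antisense gene *Gm15441* (24.5 CPM on average). The libraries were stranded, but whether the counting used the strand is not given in the sources used here, so reads of this pair cannot be told apart.

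**Figure D2:**
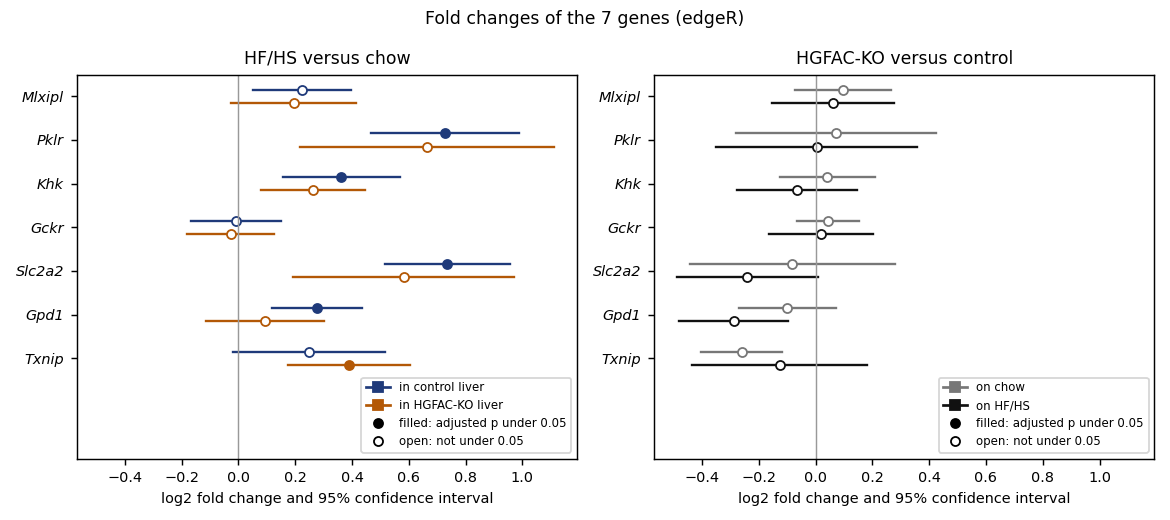
Log2 fold change of the 7 genes (points) with 95% confidence intervals (lines) for HF/HS versus chow in each genotype (left) and HGFAC-KO versus control on each diet (right), from edgeR. Filled points had an adjusted p under 0.05, which held for *Pklr*, *Khk*, *Slc2a2* and *Gpd1* in control liver and for *Txnip* in HGFAC-KO liver, and for none in the genotype comparisons.

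The 2 diet comparisons did not share mice, and a difference in diet effect between genotypes was tested by an interaction term fitted to all 27 mice. None of the 7 genes passed, at adjusted or unadjusted p under 0.05, and of 13932 genes tested 0 (0.00%) passed after adjustment and 506 at unadjusted p under 0.05 with edgeR, against 0 and 543 with DESeq2 and 0 and 513 with limma voom. The interaction was -0.19 for *Gpd1* (95% confidence interval -0.44 to 0.07), -0.16 for *Slc2a2* (-0.60 to 0.29), -0.10 for *Khk* (-0.37 to 0.17), -0.06 for *Pklr* (-0.57 to 0.45) and 0.14 for *Txnip* (-0.21 to 0.49), where a negative value is a smaller diet effect in HGFAC-KO liver. For *Mlxipl* it was -0.03 (-0.31 to 0.24) and for *Gckr* -0.02 (-0.24 to 0.19). Without HGFAC-KO replicate 1 on chow, the interaction was -0.29 for *Slc2a2* and -0.16 for *Pklr* (edgeR adjusted p = 0.980 for each), and without control replicate 7 on HF/HS it was -0.23 and -0.14 (adjusted p = 0.892 and 0.930). A call in one genotype and not in the other was therefore not shown to be a difference between them for any of the 7 genes, and each interval held values on both sides of 0.

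HGFAC-KO mice were compared with controls on each diet to ask whether loss of HGFAC moved these genes. None of the 7 passed on either diet, and 1 on each had an unadjusted p under 0.05. Of all genes tested, 1 of 13571 (0.00737%) passed on chow, which was *Hgfac*, and 2 of 13544 (0.0148%) on HF/HS, which were *Hgfac* and *Chka*. At unadjusted p under 0.05 there were 812 and 1306 genes. On chow, *Txnip* had the smallest p of the 7, with a log2 difference of -0.26 (SE 0.07, unadjusted p = 0.00129, adjusted p = 0.801). It ranked 17 among all genes by p, and 5 of 6 HGFAC-KO mice lay below all 7 controls. The other 6 genes had log2 differences from -0.10 to 0.10 on chow. These chow mice also enter the diet comparisons, so the low *Txnip* of HGFAC-KO mice on chow and its rise with HF/HS in that genotype share the same 6 mice.

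On HF/HS, *Gpd1* had the smallest p of the 7, with a log2 difference of -0.29 (SE 0.09, unadjusted p = 0.00556, adjusted p = 0.411), and 4 of 7 HGFAC-KO mice lay below all controls. *Slc2a2* followed at -0.24 (SE 0.12, 95% confidence interval -0.49 to 0.01, adjusted p = 0.529). *Txnip* was at -0.13, *Khk* at -0.07, *Mlxipl* at 0.06, *Gckr* at 0.02 and *Pklr* at 0.00, and for *Pklr* the interval of -0.35 to 0.36 was wide. The direction for *Pklr* turned with the test and with the mice left out, and no direction is given for it. The median over the 7 genes was 0.04 on chow and -0.07 on HF/HS, and over all genes 0.0031 and -0.0015. The HF/HS controls to which these mice were compared also enter the diet comparison of control liver.

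Mice of a group did not vary alike in all 7 genes. *Pklr* had the widest spread in each group but controls on HF/HS, with a coefficient of variation of 11.7% in controls and 34.7% in HGFAC-KO mice on chow. In controls on HF/HS it was at 20.5% and *Txnip* was wider at 23.4%. *Gckr* had a coefficient of variation between 2.99% and 11.9%. Control replicate 7 on HF/HS was the lowest of its group for 6 of the 7 genes, all but *Khk*, and control replicate 3 on HF/HS was the highest for *Pklr*, *Khk*, *Slc2a2* and *Gpd1*. In HGFAC-KO mice on chow, replicate 3 was the highest for the same 4 genes, while replicate 1 was the lowest for *Pklr*, *Slc2a2* and *Gpd1* and the highest for *Mlxipl*. In HGFAC-KO mice on HF/HS, replicate 5 was highest for *Mlxipl*, *Khk*, *Slc2a2*, *Gckr* and *Gpd1*, yet lowest for *Txnip*.

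**Figure D3:**
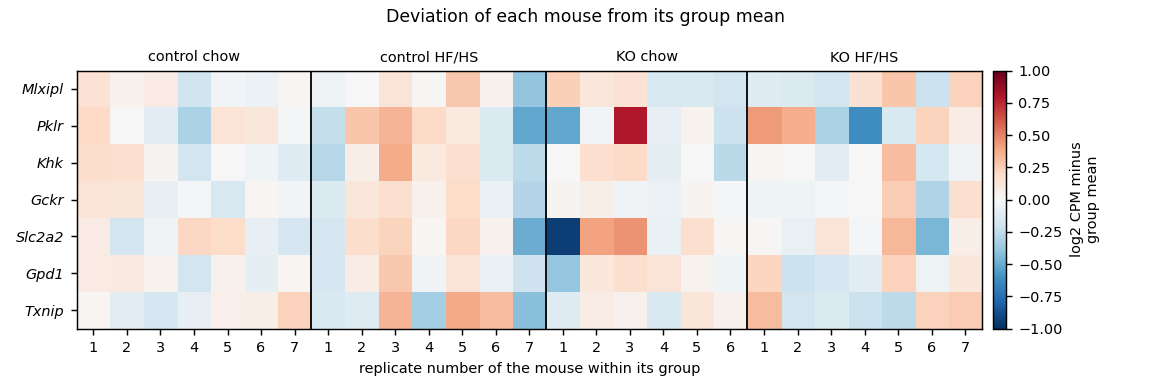
Difference of each mouse from its group mean (log2 CPM, colour scale from -1 to 1) for the 7 genes (rows) and 27 mice (columns, by group and replicate number). Control HF/HS replicate 7 was below its group mean in all 7 genes, and the largest deviations were *Slc2a2* in KO chow replicate 1 (-0.94) and *Pklr* in KO chow replicate 3.

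These deviations from the group means were set side by side between genes, over 27 mice and with no test, since genes of a mouse share its library and its time of feeding. Pearson's r was above 0 for 21 of 21 pairs of the 7 genes, with a median of 0.44. It went from 0.12 for *Mlxipl* and *Pklr* to 0.72 for *Khk* and *Gckr*. The same values over all pairs of genes were not computed, so no background is given for them. *Mlxipl* varied most closely with *Gckr* (0.71) and *Khk* (0.69). *Gpd1* varied with *Khk* (0.65), *Slc2a2* (0.65, but 0.36 without the 2 mice named above) and *Pklr* (0.59, and 0.44 without them). Without these 2 mice, 19 of 21 pairs were above 0 and the median was 0.43, while *Pklr* with *Slc2a2* went from 0.44 to 0.13 and *Mlxipl* with *Slc2a2* from 0.24 to 0.53. *Mlxipl* with *Gpd1* went from 0.37 to 0.60, and *Txnip* with *Mlxipl*, *Khk*, *Slc2a2* and *Gckr* came to lie between -0.01 and 0.09.

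Of the 13932 genes compared over 27 mice, those whose deviations were most like each gene were named by the highest r. For *Mlxipl* they were *Atg101* (0.86), *Rmc1* (0.85) and *Soat2* (0.83), and for *Pklr* they were *Elovl6* (0.86), a fatty acid elongase, *Aplp2* (0.82) and *Enpep* (0.80). *Khk* was most like *Ybx1* (0.87) and *Cyp2c29* (0.86). *Slc2a2* was most like *Sh2d4a* (0.85), *Slc2a9* (0.84), a urate transporter of the same family, and *Bco2* (0.83). For *Gckr* these were *Nit2* (0.89), *BC024386* (0.87) and *Abcc6* (0.87). *Txnip* had its closest match in *Gm15441* (0.78), the antisense gene with which it shares exon bases, ahead of *Nipsnap2* (0.78) and *Galc* (0.77). For *Gpd1* the closest were *Nr1i3* (0.89), the nuclear receptor CAR, *Epb41l4b* (0.84) and *Pgm1* (0.84), which converts glucose 1-phosphate to glucose 6-phosphate. The ranking was not repeated without the mice that correlated least with their groups.

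The other genes of sugar use around these 7 were taken from 10 lists, 116 genes in all, of which 108 were tested in each diet comparison. In control liver 9 rose (8.33%) and 16 fell (14.8%) with HF/HS, where 4.93% of all genes tested rose and 5.60% fell. In HGFAC-KO liver 4 rose (3.70%) and 8 fell (7.41%), where 3.17% of all genes rose and 2.73% fell. None passed in the genotype comparisons or as an interaction. The median log2 fold change of the listed genes was 0.01 in control and 0.00 in HGFAC-KO liver, against 0.28 and 0.26 for the 7 genes.

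Among 9 partners and regulators of ChREBP, which include MLX itself, 1 rose in control liver and none in HGFAC-KO liver. This was *Nr1h3*, the oxysterol receptor LXR alpha, which went from 119 ± 8.63 to 134 ± 7.31 CPM in controls (SD, n = 7 each, log2 0.17, adjusted p = 0.0460). This call held in 4 of 14 fits without 1 mouse, with adjusted p up to 0.0884, and was lost with no filter on low counts (adjusted p = 0.0552). Among 17 other known or proposed targets of ChREBP, 1 rose and 2 fell in control liver, and 1 rose in HGFAC-KO liver. *Rgs16*, a regulator of G protein signaling, was the riser in both. It went from 0.611 ± 0.285 to 3.27 ± 2.85 CPM in controls (log2 2.42, SE 0.54, adjusted p = 0.0110) and from 0.762 ± 0.419 (n = 6) to 3.53 ± 2.73 CPM in HGFAC-KO mice (log2 2.20, SE 0.58, adjusted p = 0.0421), with wide spread between HF/HS mice. In HGFAC-KO liver this call held in 3 of 13 fits without 1 mouse and was lost with limma voom (adjusted p = 0.0827) and with no filter on low counts (0.0707). *Tm6sf2*, which acts in the export of very-low-density lipoprotein, fell in controls from 34.9 ± 4.78 to 23.6 ± 4.91 CPM (adjusted p = 0.00719), and *Acacb*, the mitochondrial acetyl-CoA carboxylase, fell from 79.1 ± 7.56 to 60.0 ± 9.99 CPM (adjusted p = 0.0112, and 0.0786 with all mice fitted together).

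Of 7 genes of fructose uptake and breakdown besides *Khk*, 1 rose in control liver and none passed in HGFAC-KO liver. *Akr1b3*, the aldose reductase that opens the route from glucose to fructose, rose from 2.37 ± 0.117 to 3.10 ± 0.504 CPM (adjusted p = 0.0252). Of 7 tested genes of hexose transport and glucose 6-phosphatase, 1 fell in each genotype and none rose. This was *Slc2a1* (GLUT1), opposite in direction to *Slc2a2*, from 18.1 ± 2.21 to 13.0 ± 1.19 CPM in controls (log2 -0.48, SE 0.08, adjusted p = 0.00120) and from 18.2 ± 2.03 (n = 6) to 13.6 ± 1.91 CPM in HGFAC-KO mice (log2 -0.42, SE 0.10, adjusted p = 0.0169).

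Of 24 genes of glucose phosphorylation and glycolysis besides *Pklr*, 1 rose and 6 fell in control liver, and 1 rose and 3 fell in HGFAC-KO liver. The riser in controls was *Ldha*, which converts pyruvate to lactate, from 892 ± 62.8 to 1226 ± 74.5 CPM (log2 0.46, SE 0.06, adjusted p = 7.41e-05). *Aldoc*, the aldolase typical of brain, fell in both genotypes, by 0.93 (adjusted p = 0.00373) and 1.03 (adjusted p = 0.00404) on the log2 scale, and *Pgk1*, which makes ATP midway in the pathway, by 0.18 (adjusted p = 0.00899) and 0.27 (adjusted p = 0.0141). *Aldoa* fell in both genotypes, and *Tpi1*, *Pgam1* and *Pfkm* fell in control liver. *Hk3*, a hexokinase of white blood cells, rose in HGFAC-KO liver from 2.66 ± 0.383 (n = 6) to 4.53 ± 1.08 CPM (adjusted p = 0.0110). The summed level of 6 Kupffer cell markers had a median of 82.1 CPM (range 69.5 to 104) on chow and 118 CPM (91.9 to 148) on HF/HS in that genotype, and its part in the *Hk3* result was not tested.

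**Figure D4:**
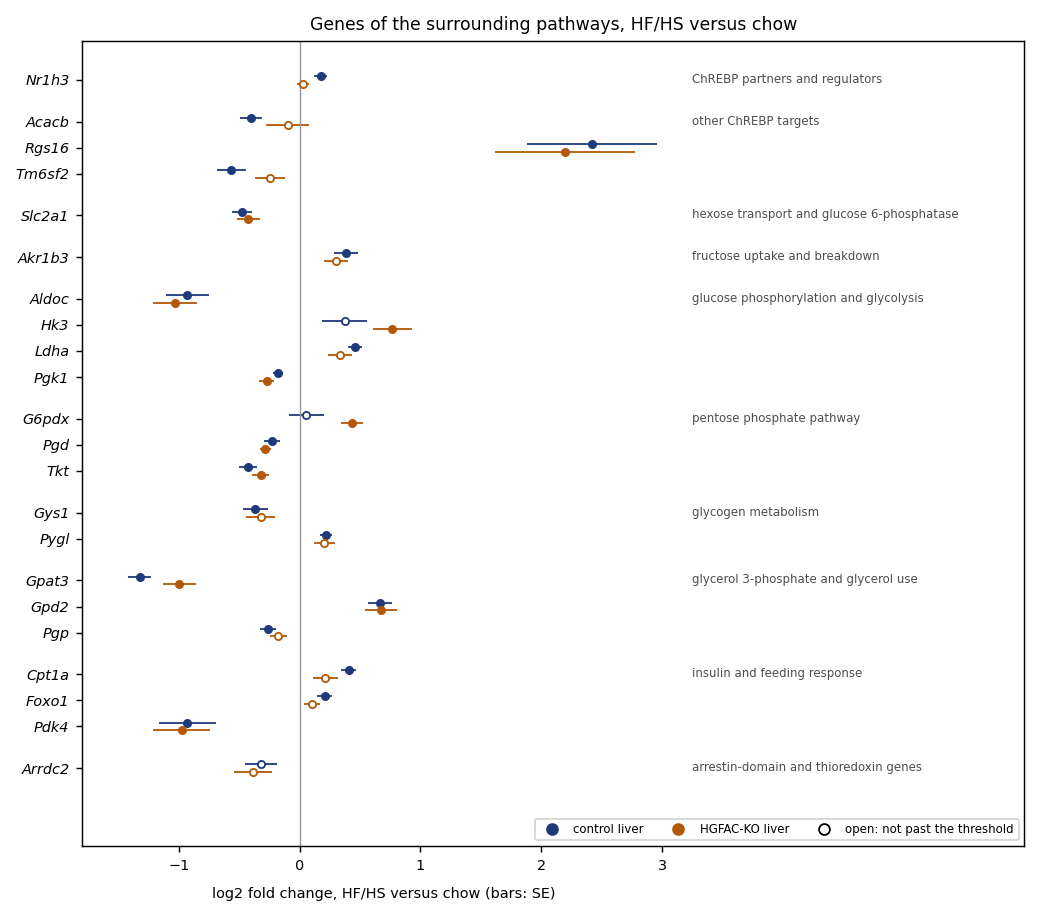
Log2 fold change of HF/HS versus chow (points) with SE (bars) for the genes named from the 10 lists, in control and in HGFAC-KO liver. Filled points passed an adjusted p of 0.05 with edgeR. *Rgs16* rose the most of these genes (2.42 and 2.20) and *Gpat3* fell the most in control liver (-1.32).

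Around *Gpd1*, 7 genes of glycerol 3-phosphate and glycerol use were tested. *Gpd2*, the mitochondrial glycerol 3-phosphate dehydrogenase that works opposite *Gpd1* in the glycerol phosphate shuttle, rose in both genotypes, from 34.2 ± 4.34 to 54.3 ± 8.08 CPM in controls (log2 0.67, SE 0.10, adjusted p = 4.32e-04) and from 32.9 ± 7.23 (n = 6) to 52.4 ± 6.78 CPM in HGFAC-KO mice (log2 0.67, SE 0.13, adjusted p = 0.00893). *Gpat3*, which adds the first fatty acid to glycerol 3-phosphate, fell in both, from 10.4 ± 1.57 to 4.15 ± 0.411 CPM in controls (adjusted p = 2.94e-07) and from 7.87 ± 1.38 (n = 6) to 3.95 ± 0.673 CPM in HGFAC-KO mice (adjusted p = 5.57e-04). *Pgp*, a phosphatase that can hydrolyse glycerol 3-phosphate, fell in controls (log2 -0.26, adjusted p = 0.0193) and was at -0.18 (adjusted p = 0.173) in HGFAC-KO liver.

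Of 8 genes of the pentose phosphate pathway, 2 fell in control liver, and 2 fell and 1 rose in HGFAC-KO liver. *Tkt*, transketolase, fell by 0.43 (adjusted p = 0.00134) and 0.32 (adjusted p = 0.0167) on the log2 scale in control and HGFAC-KO liver. *Pgd* fell by 0.23 (adjusted p = 0.0413) and 0.28 (adjusted p = 0.00114), and in control liver its call held in 3 of 14 fits without 1 mouse. *G6pdx*, which opens the pathway, rose in HGFAC-KO liver from 3.67 ± 0.366 (n = 6) to 4.96 ± 0.446 CPM (adjusted p = 0.0116) and was at 4.61 ± 0.977 and 4.80 ± 0.895 CPM in controls.

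Of 11 tested genes of glycogen metabolism, 1 rose and 1 fell in control liver and none passed in HGFAC-KO liver. *Pygl*, liver glycogen phosphorylase, rose from 356 ± 8.91 to 414 ± 29.1 CPM (adjusted p = 0.00952), and *Gys1*, the glycogen synthase typical of muscle, fell from 8.92 ± 1.09 to 6.94 ± 1.14 CPM (adjusted p = 0.0334, held in 5 of 14 fits without 1 mouse). None of 8 tested arrestin-domain and thioredoxin genes, the relatives and binding partners of *Txnip*, passed in either genotype, and the one with the smallest p was *Arrdc2* (log2 -0.32, adjusted p = 0.135, in control liver).

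Among 10 genes that follow insulin and feeding, 3 rose and 1 fell in control liver, and 1 fell in HGFAC-KO liver. *Cpt1a*, which admits fatty acids to the mitochondrion, rose from 472 ± 18.2 to 627 ± 70.2 CPM in controls (log2 0.41, SE 0.06, adjusted p = 7.02e-04). *Foxo1*, a transcription factor that insulin keeps out of the nucleus, rose by 0.21 on the log2 scale (adjusted p = 0.0464, held in 3 of 14 fits without 1 mouse), and *Angptl4* also rose. *Pdk4*, which switches off pyruvate dehydrogenase in fasting, fell in both genotypes, by 0.93 (adjusted p = 0.0227) and 0.98 (adjusted p = 0.0272).

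Markers of other cells were read beside these results. The 6 adipocyte markers had summed medians of 687 CPM on chow (range 436 to 984) and 1501 CPM on HF/HS (431 to 2114) in controls, and of 720 CPM (345 to 1187) and 914 CPM (508 to 1589) in HGFAC-KO mice, with *Lep* at 0 in all mice. The 6 endothelial markers had higher medians on HF/HS than on chow in both genotypes, at 151 CPM (range 113 to 194) and 188 CPM (139 to 232) in controls and at 132 CPM (99.1 to 159) and 175 CPM (129.8 to 199) in HGFAC-KO mice. Kupffer cell markers had a median of 105 CPM (range 70.9 to 157) and 114 CPM (91.8 to 184) in controls on chow and HF/HS, and of 82.1 CPM (69.5 to 104) and 118 CPM (91.9 to 148) in HGFAC-KO mice. Stellate cell markers had medians of 127 and 128 CPM in controls, and of 106 CPM (68.0 to 136) and 134 CPM (117 to 195) in HGFAC-KO mice. Lymphocyte markers had medians of 10.9 and 10.3 CPM in controls, and of 7.95 CPM (5.62 to 9.17) and 11.6 CPM (9.12 to 13.7) in HGFAC-KO mice. In HGFAC-KO liver the medians of the endothelial, Kupffer, stellate and lymphocyte markers were thus all higher on HF/HS, with ranges that overlapped between the diets. On chow and HF/HS, cholangiocyte markers had medians of 41.8 and 47.7 CPM in controls and 54.3 and 58.5 CPM in HGFAC-KO mice, those of exocrine pancreas 6.45 and 8.72 CPM and 6.77 and 7.36 CPM, and those of red blood cells 227 and 184 CPM and 233 and 161 CPM. The 7 hepatocyte markers had medians of 81559 and 81662 CPM in controls on chow and HF/HS, and of 94402 and 104530 CPM in HGFAC-KO mice. Their part in the levels of the 7 genes was not tested.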

How the data were processed

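Liver RNA of 27 mice was sequenced as stranded mRNA libraries. The authors aligned reads with HISAT2 to GRCm38 and assigned them to genes with featureCounts (1.6.3 in the submitters' processing notes). They deposited whole-number counts per gene, not normalized. Mice were grouped by their labels. Of 27179 rows, 3886 name no gene. These took 4.13% to 12.1% of a library's counts and were kept out of library sizes and tests. Rows of the 89 symbols on several rows were summed. Counts of any 2 libraries of a group differed by more than sampling noise (chi-square per gene at least 17.7).

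Tests used edgeR 4.0.16 under R 4.3.3 (TMM, filterByExpr with a minimum count of 10 and a minimum total of 15, robust quasi-likelihood fit, Benjamini-Hochberg adjustment over all genes, threshold 0.05). Each comparison used only its own mice, and the interaction used all. Log2 CPM had a prior count of 2. The 7 genes, the lists, the tests and the alternatives were chosen with earlier results of these data known. Named genes are the 7, *Hgfac*, up to 3 genes with the smallest p among those past the threshold in each list and comparison, or the one with the smallest p in control liver where none passed, and the 3 genes most like each of the 7. Some genes that this rule names are not reported here. *Aldoa*, *Tpi1*, *Pgam1*, *Pfkm*, *Angptl4*, *Chka* and *Hcn3* were named after their values were seen. Positions come from the GENCODE annotation of GRCm38. Alternatives were DESeq2 1.42.0, limma 3.58.1 voom, RLE normalization, other filters, 1 fit of all mice, the replicate number as a block, and leaving out each mouse. The fits were tested on counts simulated for the diet comparison of control liver only. There edgeR recovered 31 of 50 genes changed by 0.5 on the log2 scale and 46 of 50 changed by 1. False calls among 13525 genes were 7 with edgeR, 31 with DESeq2 and 6 with limma voom.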

Additional observations from a re-analysis of the deposited data

Results flagged for a closer look

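Of 28 combinations of gene and group, 2 had a mouse that stood far from the others by Dixon's criterion, where chance alone flags about 1 in 20 groups. *Pklr* in HGFAC-KO mice on chow was highest in replicate 3 at 205.29 CPM, the next mouse being at 120.89 CPM and the lowest at 82.3 CPM. *Khk* in HGFAC-KO mice on HF/HS was highest in replicate 5 at 313.72 CPM, the next mouse being at 255.54 CPM and the lowest at 224 CPM.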

How the results depend on the processing

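*Pklr* and *Slc2a2* in control liver stayed past the threshold in all 14 fits without 1 mouse and all 7 other alternatives. With HF/HS in control liver, 2 to 5 of the 7 genes passed without 1 mouse (976 to 1780 of all genes). The count of 5 came without control replicate 7 on HF/HS. In HGFAC-KO liver 0 to 2 passed (467 to 950 of all genes), against 1 and 802 with all mice, and 467 came without replicate 2 on chow. Genotype comparisons gave 1 gene on chow, 2 to 11 on HF/HS (11 without HGFAC-KO replicate 5) and 0 for the interaction without 1 mouse, with 0 of the 7 genes throughout.

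Of the named genes of the lists, 14 of 20 calls in control liver held in each of 14 fits without 1 mouse, and 9 of 11 in HGFAC-KO liver in each of 13. Most fits lost *Foxo1* and *Pgd* (held in 3 of 14), *Nr1h3* (4 of 14) and *Gys1* (5 of 14) in control liver and *Rgs16* (3 of 13) in HGFAC-KO liver. *Akr1b3* held in 12 and *Pdk4* in 13 of 14, and *Pdk4* in 9 of 13 in HGFAC-KO liver. With all mice kept and no block, *Foxo1* was also lost with limma voom (adjusted p = 0.0529) and with no filter on low counts (0.0640), beside the losses of *Nr1h3*, *Acacb* and *Rgs16* given above. Under the replicate block, calls lost included *Akr1b3*, *Foxo1*, *Gys1*, *Nr1h3*, *Pdk4*, *Pgd*, *Pgk1* and *Pgp* in control liver (adjusted p between 0.0590 and 0.135) and *G6pdx*, *Gpd2*, *Hk3*, *Pgk1* and *Rgs16* in HGFAC-KO liver (between 0.0506 and 0.206).

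With the replicate block, 2 of the 7 genes passed in control liver (*Pklr* and *Slc2a2*, 774 of all genes) and 0 in HGFAC-KO liver (602 of all genes). Replicate numbers were not taken to pair mice, since same-numbered mice correlated over 0.1 in 0 of 7, 4 of 6, 1 of 6 and 3 of 7 pairs in the diet comparisons of control and HGFAC-KO liver and in the genotype comparisons on chow and HF/HS. In HGFAC-KO liver, DESeq2 called 4 of the 7 genes (*Khk*, *Pklr*, *Slc2a2* and *Txnip*) and 1401 of all genes, and 1 fit of all mice called 3 (*Pklr*, *Slc2a2* and *Txnip*). Between genotypes, DESeq2 called 13 genes on chow, where its filtering gave 1993 of 13571 genes an adjusted p and *Txnip* none, and 55 on HF/HS, and 1 fit of all mice called 1 on HF/HS. None of these were among the 7. *Pklr* in HGFAC-KO versus control on HF/HS was at -0.00953 with limma voom and -0.00817 with the replicate block. The sign of the log2 difference also changed without 1 mouse for *Gckr* with diet in control (-0.0396 to 0.0376) and HGFAC-KO liver (-0.0778 to 0.0178), for *Pklr* (-0.13 to 0.16) and *Slc2a2* (-0.17 to 0.0547) between genotypes on chow, for *Pklr* (-0.0758 to 0.0917), *Khk* (-0.12 to 0.00544) and *Gckr* (-0.0267 to 0.0647) on HF/HS, and for the interaction of *Mlxipl* (-0.0886 to 0.0202), *Pklr* (-0.16 to 0.14) and *Gckr* (-0.0654 to 0.0251). The cause of these shifts was not tested.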
